A study of Mus musculus with 12 samples.

Results

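The collagen genes of the mouse ovary were followed across 3 diet groups. Members were all probes on the array whose gene name in the scanner files has the form Col, number, a, number (Col1a1, Col4a2 and the like), with the brightest probe standing for a gene. This gave 43 genes on 68 probes, among 18559 genes and transcripts tested in all. Of the 43, 33 passed the filter on dim probes and were tested: 8 of 11 fibrillar, 8 of 8 basement membrane and 17 of 24 other collagens. Members were chosen by name, with earlier results of these data known. The probe of each gene and the filter rest on measured brightness.

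Ovaries came from 12 adult C57BL/6J females, an inbred laboratory strain, at 2 months of age, and each was measured in 1 channel of a 2-colour Agilent array, to whose DNA probes a Cy3-dyed and a Cy5-dyed sample hybridise side by side. Early-life mice (E1 to E4) were fed a diet deficient in vitamin D in early life only, peripubertal mice (P1 to P4) were fed it in the peripubertal stage only, and control mice (C1 to C4) were on normal diet. Vitamin D is the precursor of a steroid hormone that acts through a nuclear receptor. The labels name no genetic change in any group. The RNA was that of the whole minced ovary, so fewer cells of a type and less RNA per cell cannot be told apart.

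Collagens are proteins whose chains wind into a triple helix, each chain being a long run of Gly-X-Y triplets. Fibrillar collagens, above all types I and III, align into the fibrils that carry tension in stroma. The chains of type IV form a sheet-like network in basement membranes, such as those around follicles and blood vessels. The remaining types decorate fibrils, form beaded filaments or hexagonal networks, anchor epithelia or span the cell membrane. Ovarian follicles grow and rupture within this matrix, which is rebuilt at each cycle.

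The 6 arrays held 2 samples each, always from the same group, odd replicates in Cy3 and even ones in Cy5. Early-life and control samples shared a slide of 4 arrays. All peripubertal samples were on a second slide, scanned separately, and that slide cannot be told apart from their diet. Median signal was 6.85 to 9.49 times the background, 59.3% to 65.5% of features were well above it, and precision is limited by having 2 arrays per group. Defining genes of the ovary were present, with all listed markers on the array passing the filter on dim probes (5 oocyte, 6 granulosa, 4 theca and 5 luteal genes). Group names are those of the scanner files. The authors' value table contradicts them: its 8 early-life and control columns are each matched by a channel that the scanner files assign to the opposite diet (correlation across features of at least 0.99977), and the 4 peripubertal columns matched no channel above 0.897. It is not known which naming is right, so every difference between early-life and control ovaries may have the opposite sign. With the 2 groups exchanged, each peripubertal difference from control becomes the early-life difference from peripubertal with its sign turned, and the reverse.

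The glycine repeat can be read in 3 of the 68 collagen probes, which carry at least 5 glycine codons at steps of 9 bases, 1 codon in each Gly-X-Y triplet. They are shown because the repeat is what makes a chain a collagen. That these probes lie in coding sequence is read from the repeat alone and was not checked against exon positions. Capitals mark the glycine codons (GGN) in that frame. The probes map, in build mm9, to chr4:129756457-129756516 (Col16a1), chr4:47283786-47283845 (Col15a1) and chr3:130270497-130270556 (Col25a1), all on the plus strand.
Col16a1 probe: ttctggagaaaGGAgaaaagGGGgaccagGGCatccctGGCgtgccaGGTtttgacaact
Col15a1 probe: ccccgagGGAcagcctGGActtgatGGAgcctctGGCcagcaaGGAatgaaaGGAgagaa
Col25a1 probe: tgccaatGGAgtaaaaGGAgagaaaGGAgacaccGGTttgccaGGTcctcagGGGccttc
The values given for these 3 genes come from other probes of the same genes.

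Upstream sequences are shown for Col1a2 and Col3a1, the stromal collagens of types I and III, in both of which C4 was the lowest sample, and for Col4a5 and Col4a6, a head-to-head pair whose values did not move together. Each is the 250 bases before the RefSeq start in build GRCm38.p6. Capitals mark 3 short motifs, searched on both strands and spelled out after the sequences. The windows are chr6:4505368-4505617 (plus strand), chr1:45311288-45311537 (plus), chrX:141475169-141475418 (plus) and chrX:141474077-141474326 (minus).
Col1a2 upstream: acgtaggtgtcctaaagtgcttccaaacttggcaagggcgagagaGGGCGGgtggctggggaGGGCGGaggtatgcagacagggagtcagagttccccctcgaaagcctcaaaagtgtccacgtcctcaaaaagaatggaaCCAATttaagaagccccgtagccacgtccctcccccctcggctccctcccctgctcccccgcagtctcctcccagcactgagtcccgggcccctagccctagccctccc
Col3a1 upstream: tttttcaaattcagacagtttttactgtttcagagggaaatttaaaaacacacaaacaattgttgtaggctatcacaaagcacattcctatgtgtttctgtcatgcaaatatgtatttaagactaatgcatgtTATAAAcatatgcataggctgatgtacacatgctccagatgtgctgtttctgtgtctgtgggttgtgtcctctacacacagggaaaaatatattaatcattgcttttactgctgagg
Col4a5 upstream: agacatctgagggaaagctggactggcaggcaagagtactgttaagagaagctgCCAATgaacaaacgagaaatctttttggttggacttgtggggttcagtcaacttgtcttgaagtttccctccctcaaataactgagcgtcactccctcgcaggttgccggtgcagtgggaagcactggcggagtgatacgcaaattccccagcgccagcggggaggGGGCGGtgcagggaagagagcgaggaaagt
Col4a6 upstream: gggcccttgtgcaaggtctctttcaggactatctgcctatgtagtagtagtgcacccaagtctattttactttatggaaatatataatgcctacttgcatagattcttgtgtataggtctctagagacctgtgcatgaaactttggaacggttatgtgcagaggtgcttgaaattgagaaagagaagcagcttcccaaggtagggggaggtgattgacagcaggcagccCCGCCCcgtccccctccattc
TATAAA occurred 1 time in the Col3a1 window, and in 12.4% of 32851 RefSeq windows of the same length. CCAAT occurred 1 time each in the Col1a2 and Col4a5 windows (33.8% of all windows). GGGCGG occurred 2 times in the Col1a2 window and 1 time each in those of Col4a5 and Col4a6 (32.7% of all windows). No 2 of these motifs overlap in letters. A match is a run of letters and not a shown binding site.

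No collagen gene passed the test in any comparison (limma, threshold 0.05 after Benjamini-Hochberg adjustment across 18559 genes). Between early-life and control ovaries 0 of 33 collagens were called, against 0.0377% of all genes (7), and with the replicate number as a block 0 collagens and 0 genes in all were called. Between peripubertal and control ovaries 0 of 33 were called, against 0.286% (53 genes), and between early-life and peripubertal ovaries 0 of 33, against 2.65% (491 genes). At an unadjusted p under 0.05, 1 collagen was higher and 4 were lower in early-life than in control ovaries (15.2%, against 13.9% of all genes). The same count for peripubertal and control ovaries was 1 higher and 1 lower (6.06%, against 11.3%). For early-life and peripubertal ovaries it was 2 higher and 6 lower (24.2%, against 23.9%). These shares lie near or under those of all genes. The 2 collagens higher in early-life than in peripubertal ovaries were Col14a1, whose second probe went the other way, and Col25a1. The latter passed the filter on dim probes through 3 early-life samples and 1 control. The adjusted p of the collagens started at 0.142 for early-life and control, 0.312 for peripubertal and control and 0.106 for early-life and peripubertal ovaries.

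The counts over all genes changed when 1 sample was left out, also where that sample was outside the comparison. The cause was not tested. The 7 calls between early-life and control ovaries became 88 without E2, 15 without C2, 2 without C3, 1 without E4 and 0 without any 1 of the other samples. The 53 calls between peripubertal and control ovaries became 0 without E3, 1 without E1, 5 without C1, 9 without P4 and 14 to 30 without any 1 of the others. The 491 calls between early-life and peripubertal ovaries became 2 without E1, 3 without E3, 1556 without E2, 518 without C4 and 41 to 281 without any 1 of the others. Without E2, Col27a1 was called higher in early-life than in control ovaries (1.97, adjusted p = 0.0495), and Col14a1 (0.84, adjusted p = 0.0436) and Col23a1 (1.17, adjusted p = 0.0489) higher in early-life than in peripubertal ovaries.

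By class, the median log2 difference between early-life and control ovaries was 0.02 for the 8 fibrillar, -0.13 for the 8 basement membrane and -0.02 for the 17 other collagens tested, beside -0.02 for all genes. Between peripubertal and control ovaries the medians were 0.07, 0.05 and 0.01, beside 0.01 for all genes. Between early-life and peripubertal ovaries they were -0.12, -0.14 and 0.01, beside -0.03. In that last comparison 8 of 8 basement membrane collagens had a negative difference, the smallest being -0.02 (Col18a1) and the largest -0.74 (Col4a4). Of all 18559 genes, 10208 had a negative difference there.

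**Figure D1:**
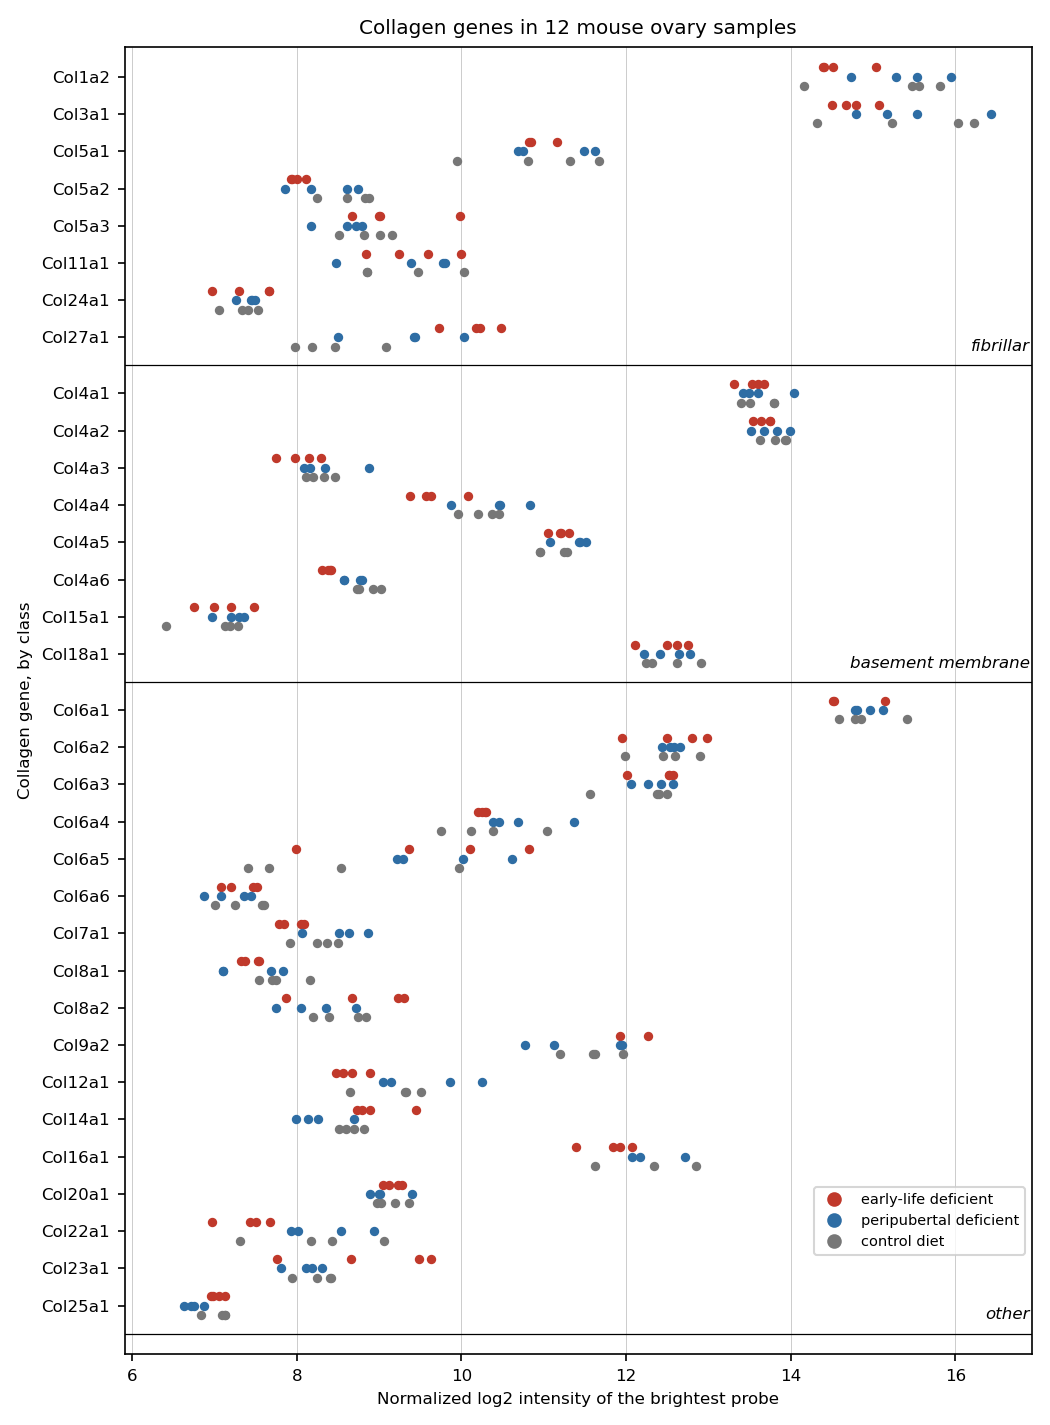
Normalized log2 intensity of the brightest probe (x axis) of each of the 33 tested collagen genes (y axis, by class), with 1 point per sample in early-life (red, upper), peripubertal (blue, middle) and control ovaries (grey, lower). In most genes the groups overlap; Col27a1 and Col4a6 are the fibrillar and basement membrane genes in which early-life and control points stand farthest apart relative to their spread. Levels of different genes come from different probes and cannot be compared with each other.

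Type I collagen, the main collagen of stromal fibrils, is built from the chains of Col1a1 and Col1a2. Col1a2 measured 15.04, 14.51, 14.39 and 14.41 in early-life ovaries, 15.95, 15.54, 15.28 and 14.73 in peripubertal ovaries and 15.81, 15.47, 15.56 and 14.16 in control ovaries. Both the highest values and the lowest one (C4) came from outside the early-life group, whose values lay within a narrower range and overlapped with both other groups. The log2 difference of Col1a2 was -0.66 ± 0.34 between early-life and control ovaries (adjusted p = 0.410), 0.12 ± 0.34 between peripubertal and control ovaries (adjusted p = 0.924) and -0.79 ± 0.34 between early-life and peripubertal ovaries (adjusted p = 0.197). Col1a1 could not be tested, because the scanner software marked its spots as outliers in every control sample and only E1, E2, P1 and P2 kept a value. With the outlier spots kept, Col1a1 read 13.35, 12.80, 12.71 and 13.15 in early-life ovaries, 14.49, 13.90, 13.10 and 13.02 in peripubertal ovaries and 14.42, 13.97, 13.73 and 12.29 in control ovaries. C4 was again the lowest of all. In that setting it differed by -0.60 ± 0.48 between early-life and control ovaries (adjusted p = 0.567), by 0.03 ± 0.48 between peripubertal and control ovaries (adjusted p = 0.990) and by -0.62 ± 0.48 between early-life and peripubertal ovaries (adjusted p = 0.449).

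Type III collagen, a trimer of Col3a1 chains, runs with type I in extensible tissue. The log2 values of Col3a1 were 15.08, 14.50, 14.67 and 14.80 in early-life ovaries, 16.43, 15.53, 15.16 and 14.79 in peripubertal ovaries and 16.22, 15.22, 16.03 and 14.32 in control ovaries. P1, C1 and C3 were highest and C4 lowest, and the groups overlapped in every comparison. Col3a1 differed by -0.69 ± 0.39 from control in early-life ovaries (adjusted p = 0.449) and by 0.03 ± 0.39 in peripubertal ovaries (adjusted p = 0.986), and by -0.72 ± 0.39 between early-life and peripubertal ovaries (adjusted p = 0.293). Type V collagen, of Col5a1, Col5a2 and in part Col5a3 chains, starts type I fibrils and limits their width. For Col5a2 the samples gave 8.004, 7.93, 7.94 and 8.12 in early-life ovaries, 8.61, 8.74, 7.85 and 8.17 in peripubertal ovaries and 8.88, 8.61, 8.82 and 8.24 in control ovaries. Every early-life value lay under every control value, while P3 lay under all of them and the peripubertal group overlapped with both. Fitted differences of Col5a2 were -0.64 ± 0.23 for early-life minus control (adjusted p = 0.285), -0.29 ± 0.23 for peripubertal minus control (adjusted p = 0.676) and -0.35 ± 0.23 for early-life minus peripubertal ovaries (adjusted p = 0.380). Col5a1 had log2 intensities of 11.16, 10.85 and 10.82 (no value for E2) in early-life ovaries, 11.62, 11.49, 10.69 and 10.75 in peripubertal ovaries and 11.67, 11.32, 10.80 and 9.94 in control ovaries. C4 was again the lowest sample, and all groups overlapped. In Col5a1 the fitted difference was -0.03 ± 0.38 between early-life and control ovaries (adjusted p = 0.981), 0.20 ± 0.38 between peripubertal and control ovaries (adjusted p = 0.877) and -0.23 ± 0.38 between early-life and peripubertal ovaries (adjusted p = 0.748). Col5a3 differed by 0.59 ± 0.32 between early-life and peripubertal ovaries (adjusted p = 0.289), with E1 the highest of its 12 samples at 9.98.

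Col27a1 encodes a fibrillar chain with a shorter, interrupted helix, known best from cartilage. The arrays read Col27a1 at 10.48, 9.73, 10.23 and 10.18 in early-life ovaries, 8.50, 9.43, 9.43 and 10.03 in peripubertal ovaries and 8.47, 9.09, 7.97 and 8.18 in control ovaries. All 4 early-life values were above all 4 control values, and the peripubertal values overlapped with both. The log2 difference of Col27a1 was 1.73 ± 0.37 between early-life and control ovaries (adjusted p = 0.163), 0.92 ± 0.37 between peripubertal and control ovaries (adjusted p = 0.388) and 0.81 ± 0.37 between early-life and peripubertal ovaries (adjusted p = 0.217). The early-life difference from control was the largest among all 33 collagens and corresponds to 3.31-fold. With the control and early-life names exchanged its sign turns. Col11a1, a chain of type XI that can also join type V, ranged from 8.47 to 10.03 over all samples, and Col24a1, a minor fibrillar chain, from 6.98 to 7.67. Neither differed by more than 0.12 in any comparison, with standard errors of 0.29 and 0.18. The cartilage collagens Col2a1 and Col11a2 were not well above background in any sample.

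Levels of several cell type marker lists are given here beside those of the fibrillar collagens, as measured. The level of a list in a sample is the median over its genes, in log2 units relative to each gene's mean over 12 samples. Of 6 fibroblast and stroma markers, such as Pdgfra, Tcf21 and Lum, 5 were measured. Their level was -0.68 to -0.46 in early-life, -0.09 to 1.07 in peripubertal and -0.70 to 0.46 in control ovaries. The smooth muscle list (7 of 7 measured) was -0.61 to -0.32 in early-life, -0.29 to 0.84 in peripubertal and -0.58 to 0.80 in control ovaries. Macrophage markers (6 of 6) were -0.74 to -0.41 in early-life, 0.25 to 0.82 in peripubertal and -0.49 to 0.51 in control ovaries. Of these, 4 were called lower in early-life than in peripubertal ovaries, where 2.65% of all genes were called. Sample C4, lowest in 3 of 8 fibrillar collagens, was also the lowest control in all of these lists. The median of the fibrillar collagens themselves was -0.29 to 0.20 in early-life, -0.11 to 0.36 in peripubertal and -0.63 to 0.34 in control ovaries. It spans genes of both signs, 4 negative and 4 positive between early-life and control ovaries. There Col1a2 and Col3a1 differed by -0.66 and -0.69, and Col27a1 by 1.73. The median differences of the marker lists were -0.68 (fibroblast and stroma), -0.55 (smooth muscle) and -0.74 (macrophage). The part of these cell types in the collagen values was not tested.

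**Figure D2:**
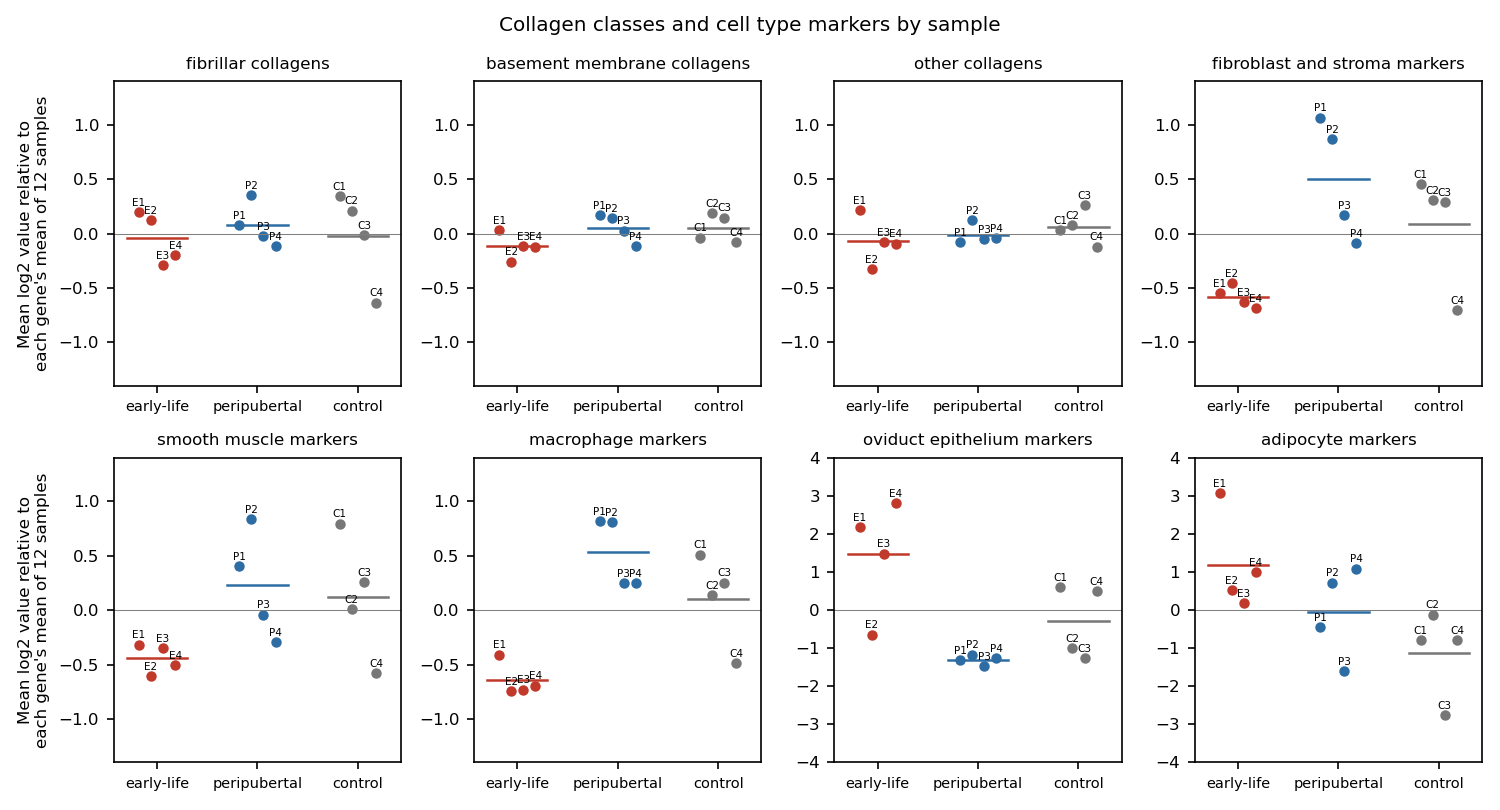
Median over the genes of a list of the log2 value relative to each gene's own mean over 12 samples (y axis), for the 3 collagen classes and 5 marker lists. Each sample has 1 labelled point in early-life (red, left), peripubertal (blue, middle) and control ovaries (grey, right), with a line at each group's mean. The axis title calls these medians a mean. The collagen classes lie between -0.63 and 0.36 in every sample, while the oviduct epithelium and adipocyte markers, on a wider axis, reach 2.82 and 3.08.

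Type IV chains make the network of every basement membrane, and Col4a1 and Col4a2 form its common trimer. Col4a1 measured 13.67, 13.31, 13.60 and 13.53 in early-life ovaries, 13.50, 13.60, 14.04 and 13.42 in peripubertal ovaries and 13.50, 13.80, 13.79 and 13.40 in control ovaries. The 3 groups overlapped, with P3 the highest sample and E2 the lowest. Col4a1 differed by -0.09 ± 0.18 from control in early-life ovaries (adjusted p = 0.822) and by 0.02 ± 0.18 in peripubertal ovaries (adjusted p = 0.984), and by -0.11 ± 0.18 between early-life and peripubertal ovaries (adjusted p = 0.737). The log2 values of Col4a2 were 13.74, 13.54, 13.64 and 13.74 in early-life ovaries, 13.84, 13.68, 13.99 and 13.52 in peripubertal ovaries and 13.95, 13.81, 13.93 and 13.62 in control ovaries. P4 and E2 were lowest, and E2 was also the lowest sample in Col4a1. Fitted differences of Col4a2 were -0.16 ± 0.11 for early-life minus control (adjusted p = 0.506), -0.07 ± 0.11 for peripubertal minus control (adjusted p = 0.845) and -0.09 ± 0.11 for early-life minus peripubertal ovaries (adjusted p = 0.647).

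Col4a3, Col4a4 and Col4a5 together form a trimer known from the kidney glomerulus. For Col4a4 the samples gave 10.07, 9.57, 9.63 and 9.37 in early-life ovaries, 10.47, 10.83, 10.45 and 9.87 in peripubertal ovaries and 10.20, 10.46, 10.37 and 9.96 in control ovaries. The early-life values were the lowest of all except that E1 lay above C4 and P4. In Col4a4 the fitted difference was -0.59 ± 0.24 between early-life and control ovaries (adjusted p = 0.331), 0.16 ± 0.24 between peripubertal and control ovaries (adjusted p = 0.847) and -0.74 ± 0.24 between early-life and peripubertal ovaries (adjusted p = 0.112). Its second probe, 12 of 12 samples above background, had mean differences of -0.42 between early-life and control and -0.54 between early-life and peripubertal ovaries. Col4a3 had log2 intensities of 8.29, 8.15, 7.98 and 7.74 in early-life ovaries, 8.15, 8.87, 8.34 and 8.09 in peripubertal ovaries and 8.11, 8.47, 8.33 and 8.19 in control ovaries. P2 was highest and E4 lowest, as in Col4a4, and all groups overlapped. The log2 difference of Col4a3 was -0.24 ± 0.22 between early-life and control ovaries (adjusted p = 0.626), 0.09 ± 0.22 between peripubertal and control ovaries (adjusted p = 0.914) and -0.32 ± 0.22 between early-life and peripubertal ovaries (adjusted p = 0.398).

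The arrays read Col4a5 at 11.20, 11.31, 11.20 and 11.05 in early-life ovaries, 11.42, 11.44, 11.07 and 11.51 in peripubertal ovaries and 10.96, 10.96, 11.28 and 11.25 in control ovaries. C1 and C2, the samples of 1 array, were the lowest. Col4a5 differed by 0.08 ± 0.14 from control in early-life ovaries (adjusted p = 0.805) and by 0.25 ± 0.14 in peripubertal ovaries (adjusted p = 0.532), and by -0.17 ± 0.14 between early-life and peripubertal ovaries (adjusted p = 0.473). Col4a6, whose chain joins that of Col4a5 in the basement membrane of smooth muscle, had the smallest standard error of the 33 tested members. Col4a6 measured 8.31, 8.42, 8.40 and 8.37 in early-life ovaries, 8.77, 8.79, 8.58 and 8.57 in peripubertal ovaries and 9.02, 8.92, 8.75 and 8.73 in control ovaries. Each early-life value lay under each peripubertal and each control value, which held for no other of the 33 tested collagens. Fitted differences of Col4a6 were -0.48 ± 0.10 for early-life minus control (adjusted p = 0.142), -0.18 ± 0.10 for peripubertal minus control (adjusted p = 0.520) and -0.30 ± 0.10 for early-life minus peripubertal ovaries (adjusted p = 0.106). The gene had the smallest unadjusted p among collagens in both comparisons that involve early-life ovaries (0.000490 and 0.00985), and neither passed after adjustment over all genes.

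Col15a1 and Col18a1 encode collagens that sit in basement membranes and carry sugar chains, and the end of type XVIII is cut off as endostatin. The log2 values of Col15a1 were 7.20, 6.76, 6.995 and 7.48 in early-life ovaries, 7.36, 7.20, 6.98 and 7.30 in peripubertal ovaries and 7.13, 7.28, 7.18 and 6.41 in control ovaries. Only 8 samples were well above background, and C4 was again the lowest. In Col15a1 the fitted difference was 0.10 ± 0.26 between early-life and control ovaries (adjusted p = 0.866), 0.21 ± 0.26 between peripubertal and control ovaries (adjusted p = 0.802) and -0.10 ± 0.26 between early-life and peripubertal ovaries (adjusted p = 0.839). For Col18a1 the samples gave 12.62, 12.10, 12.50 and 12.75 in early-life ovaries, 12.77, 12.64, 12.21 and 12.41 in peripubertal ovaries and 12.31, 12.24, 12.91 and 12.62 in control ovaries. The log2 difference of Col18a1 was -0.03 ± 0.21 between early-life and control ovaries (adjusted p = 0.965), -0.01 ± 0.21 between peripubertal and control ovaries (adjusted p = 0.991) and -0.02 ± 0.21 between early-life and peripubertal ovaries (adjusted p = 0.975). The groups overlapped in both genes. The endothelial markers, whose cells rest on basement membrane, had a median of -0.32 to -0.07 in early-life, 0.04 to 0.27 in peripubertal and -0.05 to 0.17 in control ovaries. Emcn, an endothelial sialomucin, was called lower in early-life than in peripubertal ovaries (-0.79, adjusted p = 0.0437), where 2.65% of all genes were called. It was the 1 endothelial marker of 6 called there. Of the 6, 4 had a negative and 2 a positive difference, the latter being Pecam1 (0.07) and Kdr (0.08). The part of these cells in the basement membrane values was not tested.

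Pairs of chains that build 1 trimer or share a promoter region were compared across samples. Of 7 pairs, 6 had enough values, and p-values are from 100000 resamples, two-sided, adjusted over the 6 pairs. Both samples of an array share its hybridisation, so the 12 values are not fully independent. The resamples shuffled all values without regard to diet group, dye or array. Differences between these can therefore enter r and make p too small. Col4a3 and Col4a4 rose and fell together over the 12 samples (Pearson r = 0.851, adjusted permutation p = 9.0e-04, Spearman rho = 0.804, adjusted permutation p = 0.0150). Without E4 and P2, the samples farthest from the Col4a3 median, r was 0.701 (n = 10 samples), and over the 8 samples of the slide of early-life and control arrays it was 0.868. Col4a1 and Col4a2, whose RefSeq starts lie 21 bases apart on opposite strands of chromosome 8 in GRCm38.p6, had r = 0.713 (adjusted permutation p = 0.0253) and rho = 0.650 (adjusted permutation p = 0.0755). Without E2 and P3 their r was 0.485, and within the slide of early-life and control arrays 0.631. Leaving out the samples farthest from the median narrows the range, so a lower r does not show what a relation rested on.

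Col4a5 and Col4a6, head to head on chromosome X with starts 1343 bases apart, had r = -0.168 (adjusted permutation p = 0.597) and rho = -0.070 (adjusted permutation p = 0.835), and -0.511 within the slide. The other pairs did not pass either: Col5a1 and Col5a2 had r = 0.552 (adjusted permutation p = 0.149), Col6a1 and Col6a2 0.424 (adjusted permutation p = 0.288) and Col8a1 and Col8a2 0.324 (adjusted permutation p = 0.365). Their rho was 0.527, 0.491 and 0.259. The peripubertal slide held 4 samples, too few for a value of its own.

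**Figure D3:**
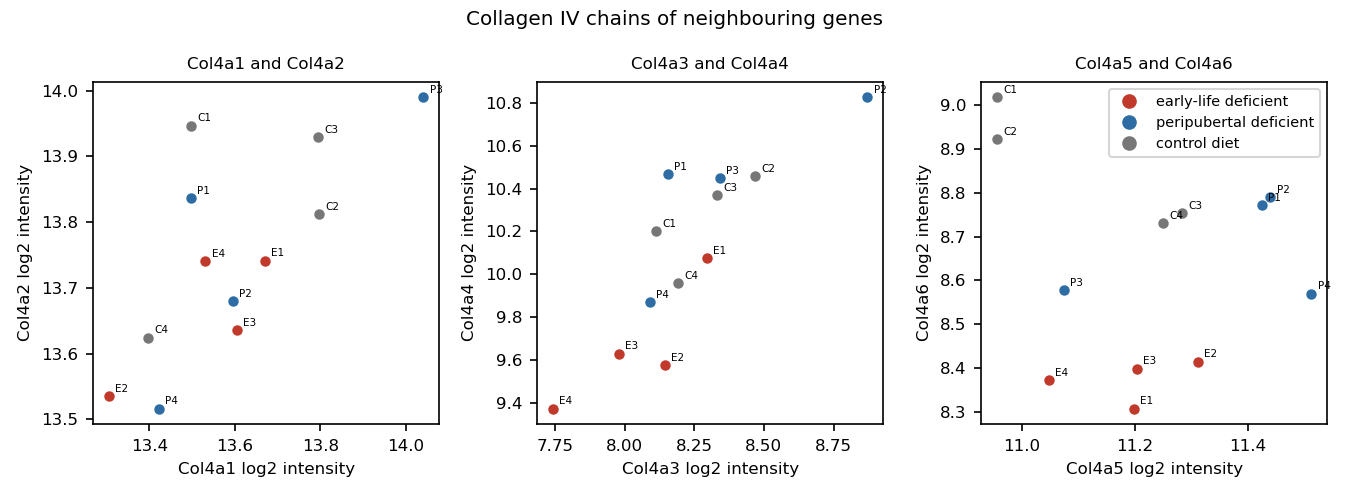
Log2 intensity of 1 type IV chain (x axis) against its partner (y axis) for Col4a1 and Col4a2, Col4a3 and Col4a4, and Col4a5 and Col4a6, with 1 labelled point per sample in early-life (red), peripubertal (blue) and control ovaries (grey). Col4a3 and Col4a4 line up (r = 0.851 over 12 samples), and in the right-hand panel the early-life samples lie under all others in Col4a6 at any level of Col4a5.

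Type VI collagen forms beaded filaments that link cells to fibrils. Col6a1 had log2 intensities of 15.14, 14.52 and 14.52 (no value for E3) in early-life ovaries, 14.96, 14.78, 15.12 and 14.81 in peripubertal ovaries and 14.78, 14.58, 15.42 and 14.85 in control ovaries. The arrays read Col6a2 at 12.98, 11.94, 12.80 and 12.50 in early-life ovaries, 12.53, 12.65, 12.58 and 12.44 in peripubertal ovaries and 12.90, 12.45, 12.59 and 11.99 in control ovaries. Col6a3 measured 12.57, 12.01, 12.52 and 12.52 in early-life ovaries, 12.05, 12.57, 12.27 and 12.43 in peripubertal ovaries and 12.49, 12.39, 12.37 and 11.56 in control ovaries. In Col6a2 and Col6a3, E2 was the lowest early-life sample and C4 the lowest control. Col6a1 differed by -0.12 ± 0.17 from control in early-life ovaries (adjusted p = 0.755) and by 0.01 ± 0.16 in peripubertal ovaries (adjusted p = 0.990), and by -0.13 ± 0.17 between early-life and peripubertal ovaries (adjusted p = 0.681). Fitted differences of Col6a2 were 0.07 ± 0.22 for early-life minus control (adjusted p = 0.894), 0.07 ± 0.22 for peripubertal minus control (adjusted p = 0.938) and 0.0035 ± 0.22 for early-life minus peripubertal ovaries (adjusted p = 0.995). In Col6a3 the fitted difference was 0.20 ± 0.26 between early-life and control ovaries (adjusted p = 0.734), 0.13 ± 0.26 between peripubertal and control ovaries (adjusted p = 0.894) and 0.08 ± 0.26 between early-life and peripubertal ovaries (adjusted p = 0.889). The chains of these 3 genes form the common trimer, and each of their differences was smaller than its standard error.

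Col6a5 encodes another chain of type VI with a restricted distribution. The log2 values of Col6a5 were 10.81, 7.98, 9.36 and 10.11 in early-life ovaries, 9.21, 9.29, 10.01 and 10.61 in peripubertal ovaries and 7.66, 7.41, 9.97 and 8.54 in control ovaries. It had the widest spread of the 33 collagens, and the groups overlapped. The log2 difference of Col6a5 was 1.17 ± 0.80 between early-life and control ovaries (adjusted p = 0.509), 1.39 ± 0.80 between peripubertal and control ovaries (adjusted p = 0.549) and -0.22 ± 0.80 between early-life and peripubertal ovaries (adjusted p = 0.896). Col6a4, a pseudogene in humans, had 10.20 to 10.30 in early-life, 10.39 to 11.37 in peripubertal and 9.75 to 11.04 in control ovaries. Its early-life values lay under all peripubertal values (-0.46 ± 0.32, adjusted p = 0.401).

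Fibril-associated collagens sit on the surface of fibrils without forming their own. For Col12a1 the samples gave 8.88, 8.67, 8.47 and 8.56 in early-life ovaries, 10.25, 9.85, 9.04 and 9.14 in peripubertal ovaries and 9.33, 9.32, 9.51 and 8.64 in control ovaries. All early-life values were under all peripubertal ones, and C4 was the only control among them. Col12a1 differed by -0.55 ± 0.29 from control in early-life ovaries (adjusted p = 0.419) and by 0.37 ± 0.29 in peripubertal ovaries (adjusted p = 0.681), and by -0.93 ± 0.29 between early-life and peripubertal ovaries (adjusted p = 0.106). Col14a1 had log2 intensities of 9.45, 8.73, 8.80 and 8.89 in early-life ovaries, 8.26, 8.69, 7.995 and 8.13 in peripubertal ovaries and 8.69, 8.82, 8.51 and 8.60 in control ovaries. All early-life values were above all peripubertal ones, by the smallest margin for E2 and P2. Fitted differences of Col14a1 were 0.31 ± 0.22 for early-life minus control (adjusted p = 0.531), -0.39 ± 0.22 for peripubertal minus control (adjusted p = 0.552) and 0.70 ± 0.22 for early-life minus peripubertal ovaries (adjusted p = 0.112). Its second probe, above background in all 12 samples, went the other way, with a mean difference of -0.19 between early-life and peripubertal ovaries, so the difference holds for 1 of 2 probes.

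Col22a1 encodes a collagen of tissue junctions, known from the ends of muscle fibres. The arrays read Col22a1 at 7.51, 7.67, 7.44 and 6.97 in early-life ovaries, 8.94, 8.53, 8.02 and 7.93 in peripubertal ovaries and 9.06, 8.17, 8.42 and 7.31 in control ovaries. The early-life values lay under all peripubertal values, and C4 was the only control under any of them. In Col22a1 the fitted difference was -0.84 ± 0.34 between early-life and control ovaries (adjusted p = 0.328), 0.11 ± 0.34 between peripubertal and control ovaries (adjusted p = 0.934) and -0.96 ± 0.34 between early-life and peripubertal ovaries (adjusted p = 0.140). A second probe of the gene gave mean differences of -0.93 between early-life and control and -0.96 between early-life and peripubertal ovaries. Col16a1 averaged 11.81 ± 0.29 in early-life (SD, n = 4), 12.32 ± 0.34 in peripubertal (SD, n = 3) and 12.27 ± 0.61 in control ovaries (SD, n = 3), 1 outlier value being left out of each of the last 2. It differed by -0.62 ± 0.35 between early-life and peripubertal ovaries (adjusted p = 0.325), and no value of these groups overlapped. Col20a1 ranged from 8.89 to 9.39 over all samples. Col9a2, known from cartilage, kept only E1 and E2 (11.93 and 12.27) in the early-life group, against 10.77 to 11.95 in peripubertal ovaries, a difference of 0.66 ± 0.34 (adjusted p = 0.278). With the replicate number as a block this difference was 1.00 (adjusted p = 0.0450) and Col9a2 was called.

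Among the remaining members, Col8a1 encodes a short chain of hexagonal networks, as in the membrane under the corneal endothelium. Col8a1 measured 7.53, 7.54, 7.32 and 7.37 in early-life ovaries, 7.69, 7.83, 7.10 and 7.10 in peripubertal ovaries and 7.54, 7.70, 8.16 and 7.74 in control ovaries. The log2 difference of Col8a1 was -0.34 ± 0.20 between early-life and control ovaries (adjusted p = 0.463), -0.35 ± 0.20 between peripubertal and control ovaries (adjusted p = 0.554) and 0.01 ± 0.20 between early-life and peripubertal ovaries (adjusted p = 0.987). The groups overlapped in all comparisons. Its partner Col8a2 ranged from 7.75 to 9.30. Col25a1 and Col23a1 encode collagens that span the cell membrane. The log2 values of Col25a1 were 7.13, 7.05, 6.98 and 6.96 in early-life ovaries, 6.63, 6.72, 6.76 and 6.87 in peripubertal ovaries and 7.09, 7.12, 7.13 and 6.84 in control ovaries. Only 4 samples were well above background, 3 early-life samples and 1 control, so the gene passed the filter on dim probes through these. Col25a1 differed by -0.02 ± 0.10 from control in early-life ovaries (adjusted p = 0.957) and by -0.30 ± 0.10 in peripubertal ovaries (adjusted p = 0.312), and by 0.29 ± 0.10 between early-life and peripubertal ovaries (adjusted p = 0.143). Because the peripubertal values are at background, the fold is only bounded, at least 1.06-fold higher in early-life than in peripubertal ovaries. The bound sets the early-life mean against the lowest signal well above background in each peripubertal sample, or the probe's own value where that is higher. Col23a1 read 9.48, 7.76, 8.65 and 9.63 in early-life ovaries, 8.31, 8.12, 8.19 and 7.81 in peripubertal ovaries and 8.42, 7.94, 8.24 and 8.41 in control ovaries. E2 was the lowest early-life sample. The anchoring fibril collagen Col7a1 differed by -0.58 ± 0.24 between early-life and peripubertal ovaries (adjusted p = 0.177), with 7.79 to 8.09 in early-life and 8.06 to 8.87 in peripubertal ovaries.

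**Figure D4:**
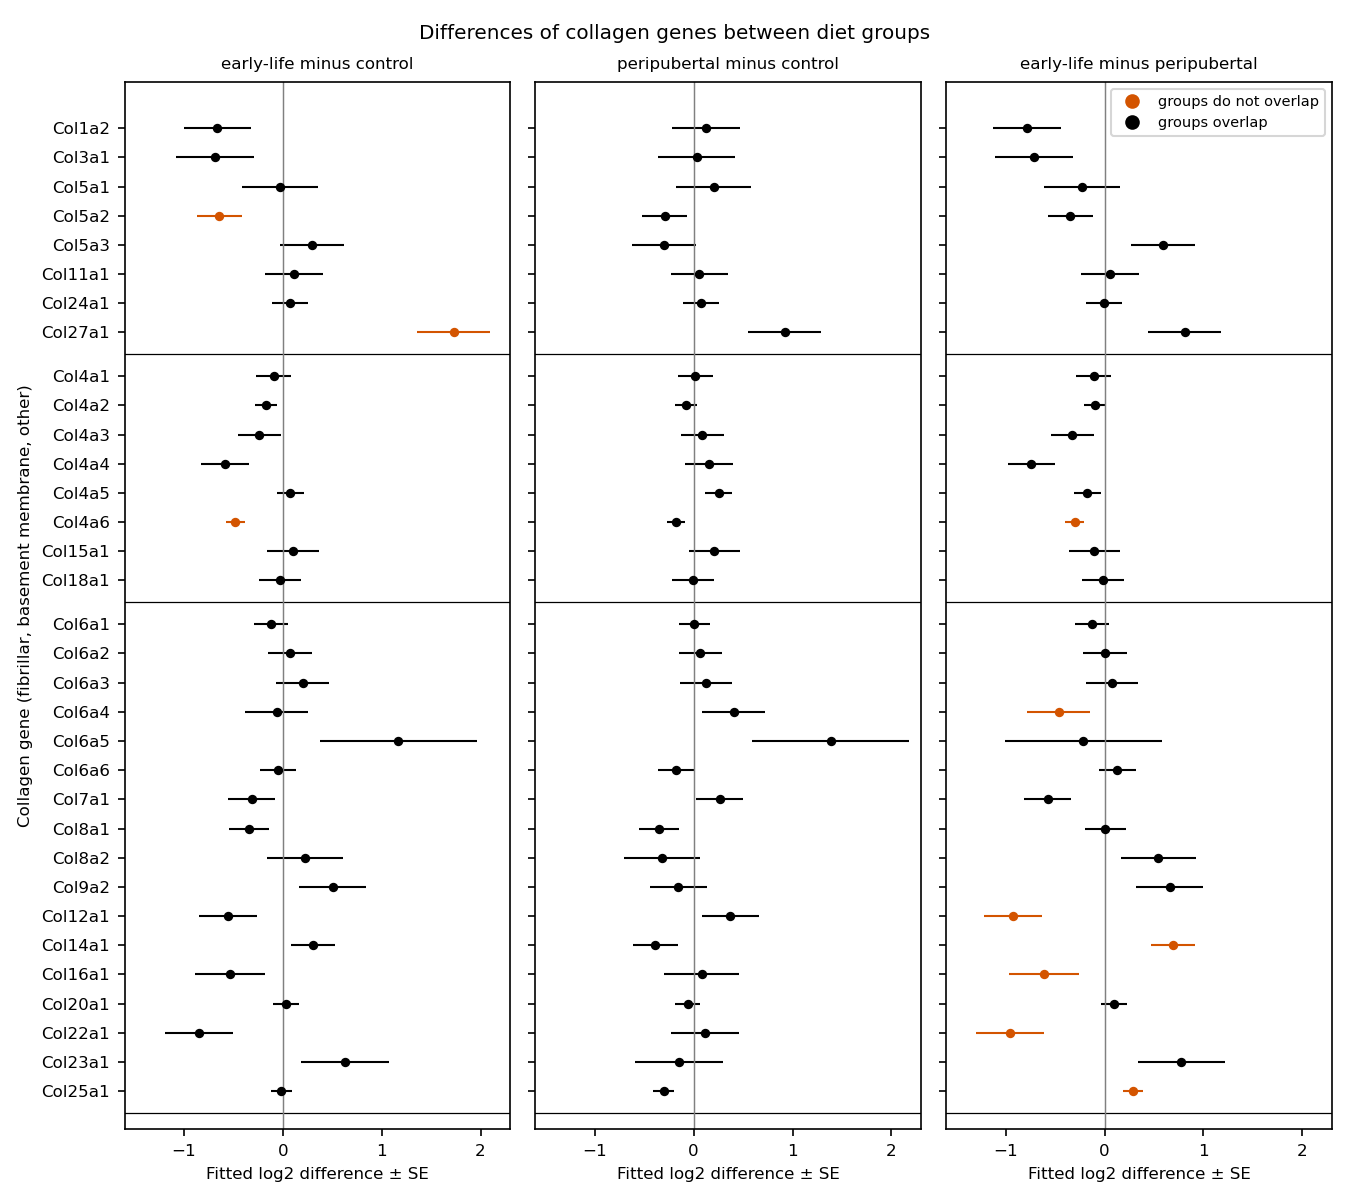
Fitted log2 difference with its standard error (x axis) of each tested collagen gene (y axis; fibrillar, basement membrane and other collagens from top to bottom) for early-life minus control, peripubertal minus control and early-life minus peripubertal ovaries. Orange marks genes whose 2 groups share no value range, 3, 0 and 7 genes. Col27a1 has the largest positive difference from control in early-life ovaries (1.73) and no gene passed the test in any panel.

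In 3 of the 33 collagens (9.09%) early-life and control values did not overlap, beside 13.6% of all genes, namely Col27a1 upward and Col5a2 and Col4a6 downward. For peripubertal and control ovaries it was 0 of 33, beside 11.3%. For early-life and peripubertal ovaries it was 7 of 33 (21.2%), beside 20.7%, with Col14a1 and Col25a1 higher and Col4a6, Col6a4, Col12a1, Col16a1 and Col22a1 lower. Of these, Col25a1 passed the filter on dim probes through 3 early-life samples and 1 control. The shares of collagens were under or close to those of all genes.

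For 12 of the collagens a second probe was above background. Both probes of a gene gave the same sign of the mean difference in 9 of 12 genes for early-life and control, 5 of 12 for peripubertal and control and 7 of 12 for early-life and peripubertal ovaries. The probes of Col14a1 disagreed in all 3 comparisons.

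Some samples were often the lowest or highest among the members. C4 was the lowest of the 12 samples in 6 collagens and E2 in 7, while E1 was the highest in 8 and C3 in 6. The same counts over all genes were not made, so this is not shown to be particular to collagens. C4 and E2 carried Cy5, and E1 and C3 Cy3. Col10a1, the collagen of growth plate cartilage, read 10.91 in C1 and 9.69 in C2, both on 1 array, of which the C2 spot was marked as an outlier. It read 7.70 in E2 and was not well above background in the other 9 samples. Col9a3, another cartilage collagen, was above background only in E3 (7.41) and E4 (7.70), also 1 array, and at 6.38 to 6.56 in all others. A lone array cannot tell the tissue it held from the array itself. Col9a1 and Col17a1 were above background in 1 sample each, and Col2a1, Col11a2, Col13a1, Col19a1 and Col28a1 in none on any probe. One further collagen lies outside the naming rule: Emid2 in the files is Col26a1 in RefSeq. It differed by -0.81 ± 0.24 between early-life and control ovaries (adjusted p = 0.241), by 0.17 ± 0.24 between peripubertal and control ovaries (adjusted p = 0.829) and by -0.98 ± 0.24 between early-life and peripubertal ovaries (adjusted p = 0.0607).

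Collagen chains are hydroxylated, folded, trimmed and cross-linked by dedicated enzymes, and 29 of 32 listed genes of these steps were tested. None was called between a deficient group and control ovaries, and 1 of 29 was called lower in early-life than in peripubertal ovaries, a share close to the 2.65% of all genes called there. This was Loxl3, a lysyl oxidase that cross-links collagen. For Loxl3 the samples gave 7.81, 7.81, 7.88 and 7.66 in early-life ovaries, 8.82, 8.49, 8.30 and 8.15 in peripubertal ovaries and 8.80, 8.33, 8.72 and 8.31 in control ovaries. Fitted differences of Loxl3 were -0.75 ± 0.14 for early-life minus control (adjusted p = 0.115), -0.10 ± 0.14 for peripubertal minus control (adjusted p = 0.826) and -0.65 ± 0.14 for early-life minus peripubertal ovaries (adjusted p = 0.0442). Loxl2, a second lysyl oxidase, was 0.75 ± 0.28 and 0.76 ± 0.28 above control in early-life and peripubertal ovaries (adjusted p = 0.305 and 0.340), 2 differences that share the control samples. Tll1 went the other way, by -0.24 ± 0.08 in each (adjusted p = 0.254 and 0.279), with all values under control. Groups did not overlap in 4 and 3 of the 29 genes (13.8% and 10.3%) in these comparisons, beside 13.6% and 11.3% of all genes. Serpinh1, the chaperone of procollagen, differed by -0.32 ± 0.10 between early-life and peripubertal ovaries (adjusted p = 0.115). P4ha1, a prolyl hydroxylase, differed by -0.37 ± 0.15 between them (adjusted p = 0.177). The list's median was -0.03, 0.05 and -0.09 in early-life minus control, peripubertal minus control and early-life minus peripubertal, beside -0.02, 0.01 and -0.03 for all genes.

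Small proteoglycans and glycoproteins that bind fibrils had 10 of 12 listed genes tested and none called. Their medians were -0.39, 0.18 and -0.45 in the same 3 comparisons, beside the same medians of all genes (-0.02, 0.01 and -0.03). Lum, the keratan sulphate proteoglycan lumican, differed by -1.57 ± 0.52 between early-life and peripubertal ovaries (adjusted p = 0.118), and Bgn, biglycan, by -0.95 ± 0.27 (adjusted p = 0.0839). Aspn, asporin, differed by -0.92 ± 0.29 (adjusted p = 0.106). All 4 early-life values lay under all 4 peripubertal values in these 3 genes. With Sparc, of which 2 peripubertal values were left out as outliers, the groups did not overlap in 4 of the 10 tested genes, beside 20.7% of all genes. Of the 10 genes, 7 had a negative and 3 a positive difference between early-life and peripubertal ovaries. The 3 were Fn1, fibronectin (0.71 ± 0.47, adjusted p = 0.393), Fmod, fibromodulin (0.65 ± 0.37, adjusted p = 0.314), and Tnxb (0.15 ± 0.58, adjusted p = 0.899). Fmod lay under control in all peripubertal values (-0.74 ± 0.36, adjusted p = 0.490), the 1 of 10 genes apart there, beside 11.3% of all genes.

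Laminins, nidogens and other partners of type IV collagen had 15 of 17 genes tested and none called, with medians of -0.01, 0.05 and -0.15, beside -0.02, 0.01 and -0.03 for all genes. Nid2, which links laminin to type IV collagen, differed by -0.85 ± 0.23 between early-life and control ovaries (adjusted p = 0.223), with all values apart. The groups did not overlap there in 2 of 15 genes (13.3%), beside 13.6% of all genes. Lamb3, a laminin chain of epithelia, differed by 0.91 ± 0.37 in that comparison (adjusted p = 0.325). Oviduct epithelium markers, also epithelial genes, were -0.64 to 2.82 in early-life, -1.47 to -1.17 in peripubertal and -1.26 to 0.60 in control ovaries (6 of 6 measured). Wfdc2 among them was called higher in early-life than in peripubertal ovaries (4.50, adjusted p = 0.0478), where 2.65% of all genes were called. Adipocyte markers (5 of 6) were 0.18 to 3.08 in early-life, -1.59 to 1.09 in peripubertal and -2.75 to -0.12 in control ovaries, and surface epithelium markers (6 of 6) were -0.86 to 1.01 in early-life, -0.75 to 0.26 in peripubertal and -0.89 to 0.28 in control ovaries. Their part in the values of these genes was not tested.

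Collagen receptors had 9 of 10 listed genes tested, with medians of -0.28, 0.10 and -0.43, beside -0.02, 0.01 and -0.03 for all genes, and 1 was called lower in early-life than in peripubertal ovaries, where 2.65% of all genes were called. It was Lair1, an inhibitory collagen receptor of immune cells. Lair1 had log2 intensities of 7.59, 7.71, 7.51 and 7.76 in early-life ovaries, 8.13, 8.09, 8.17 and 8.15 in peripubertal ovaries and 7.92, 7.93, 7.93 and 7.91 in control ovaries. In Lair1 the fitted difference was -0.28 ± 0.08 between early-life and control ovaries (adjusted p = 0.231), 0.21 ± 0.08 between peripubertal and control ovaries (adjusted p = 0.365) and -0.49 ± 0.08 between early-life and peripubertal ovaries (adjusted p = 0.0267). Itga1 and Itga11, the collagen-binding integrin chains of stromal cells, differed by -0.31 ± 0.12 and -0.67 ± 0.21 between early-life and control ovaries (adjusted p = 0.318 and 0.245), all values apart in both. The groups did not overlap there in 3 of 9 receptors, beside 13.6% of all genes. Of the 9, 7 had a negative and 2 a positive difference in that comparison. Ddr1 was the highest, at 0.70 ± 0.35 (adjusted p = 0.395), and was 0.60 ± 0.35 above peripubertal ovaries (adjusted p = 0.317). Itga1 and its partner Itgb1 differed by -0.38 ± 0.12 and -0.28 ± 0.12 between early-life and peripubertal ovaries (adjusted p = 0.112 and 0.183). The macrophage markers, of which 6 of 6 had a negative difference in that comparison and 4 were called, include C1qa (-1.36 ± 0.24, adjusted p = 0.0314) and Adgre1 (-1.19 ± 0.21, adjusted p = 0.0314); their part in the Lair1 value was not tested.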

How the data were processed

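RNA of 12 ovaries was amplified with the dye Cy3 or Cy5, per the labels' protocols. The deposited scanner files, made by the authors with Agilent Feature Extraction 11.0.1.1 per the file headers, give intensity values per spot that are not normalized (the mean signal and the median of the local background), and a processed intensity that is background-subtracted and dye-normalized. Log2 values centred on a median of 0 in each column stand in the authors' value table. How the authors made it is not given in the sources used here, and its scale and direction were set against the scanner values of the same features. Probe positions are those of mm9, as the file headers name it.

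Computed here with R 4.3.3, limma 3.58.1, statmod 1.5.0 and the package data.table (version 1.17.8): normexp background correction (offset 50), loess within and Aquantile between arrays, channels as separate log2 values, outlier-marked spots (2.16% to 4.28% of a channel) left out, and spots averaged per probe. A probe was kept (23791 of 39429) if 4 or more of the 12 samples were well above background and each group had 2 values, and the brightest stood for a gene. One limma model held diet and dye as fixed effects and blocked on array (estimated correlation 0.288). P-values were adjusted by Benjamini-Hochberg over 18559 genes, with a threshold of 0.05. Correlations, sequences and figures used Python 3.11.15 with SciPy 1.17.1.

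In data simulated from the early-life and control comparison over 18559 genes, 32.8% of 1.5-fold, 71.6% of 2-fold and 100% of 4-fold changes were recovered, with 11 false among 147 calls. The simulation changed 67, 67 and 66 genes at these folds, while the real comparison gave 7 calls. With fewer calls the adjustment is stricter, so these shares do not carry over to the collagens. Their median standard error was 0.24, beside 0.15 for all genes, and Col27a1 was not called at 3.31-fold. The members, classes and lists were chosen with earlier results of these data known. Genes given with every sample are the main chains of each class and, in each class and comparison, the 2 members with the smallest p; members named beyond these were chosen after their values were seen. Samples with the same number in early-life and control ovaries deviated together in 4 of 4 pairs (correlation across genes 0.14 to 0.57). Samples with the same number also share a dye, and these 2 groups share a slide. Taken within each dye, the correlations were 0.26 to 0.52. No label pairs the samples, and whether they are paired was not tested. In the other comparisons not every pair deviated together (-0.28 to 0.30). Alternatives were other background, normalization, filter, outlier, probe and model choices, the deposited log2 values, exchanged group names, the replicate number as a block, and each sample left out. For a gene that was not called, a change of sign under an alternative was read against the spread between replicates and not counted as a reversal.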

Additional observations from a re-analysis of the deposited data

Results flagged for a closer look

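In each group with 4 values, the highest and lowest sample were set against the nearest other sample, relative to the range of the group. This was done for 94 groups of collagen values, of which 3 stood apart, where chance alone gives about 1 in 20. Col6a3, a chain of the type VI trimer, read 12.01 in E2, with the other early-life samples at 12.52 to 12.57. It also read 11.56 in C4, with the other controls at 12.37 to 12.49. Col25a1, a membrane-spanning collagen, read 6.84 in C4, with the other controls at 7.09 to 7.13. E2 and C4 were also the samples that were lowest in the most collagens (7 and 6 of 33). The C4 value of Col6a3 is part of that count, and the same counts over all genes were not made.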

How the results depend on the processing

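Collagen calls stayed at 0 in all 3 comparisons under most alternatives. Without the array block, Col27a1 (1.73, adjusted p = 0.0468) and Col4a6 (-0.48, adjusted p = 0.0462) were called between early-life and control ovaries and Col14a1 (0.70, adjusted p = 0.0405) and Col4a4 (-0.74, adjusted p = 0.0429) between early-life and peripubertal ovaries, 2 collagens in each. With the replicate block, Col9a2 was the 1 collagen called between early-life and peripubertal ovaries. With 1 sample left out, collagen calls were 0 to 1 for early-life and control, 0 for peripubertal and control and 0 to 2 for early-life and peripubertal ovaries.

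Calls over all genes, given for early-life minus control, peripubertal minus control and early-life minus peripubertal, were 7, 53 and 491. They were 126, 154 and 2096 without the array block, 35, 80 and 738 without the dye term, 0, 14 and 643 with the replicate block, 3, 21 and 333 without the filter on dim probes, and 0, 15 and 506 with all 12 samples above background. They were 1, 26 and 433 with outlier spots kept, 0, 20 and 306 with the mean of all probes, 24, 59 and 558 from the processed signals, and 7, 491 and 53 with the early-life and control arrays exchanged. Between early-life and control ovaries the slide of these groups alone gave 0 and the deposited log2 values 16. With 1 sample left out, calls were 0 to 88, 0 to 30 and 2 to 1556. The cause of these shifts was not tested, beyond the fewer samples or genes that an alternative holds.

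The basement membrane median between early-life and control ovaries (-0.13) was 0.23 in the deposited log2 values and 0.13 with the arrays exchanged, as both turn the group names. Without 1 sample it was -0.18 to -0.09. For Col27a1 the early-life difference from control had the same sign in 23 of 25 alternatives, and the 2 others are those with the names turned (lowest value -2.11). The same held for Col4a6 (23 of 25). Signal over background of 6.85 to 9.49 and 2 arrays per group limit what could be detected.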
